A study of Caenorhabditis elegans with 9 samples.

Results

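The acyl-CoA genes described here are those of the acs, acdh, ech, hacd and kat families of Caenorhabditis elegans, without acdh-1 and ech-6. They were chosen by name: every gene of the count table whose WBcel235 gene name begins with one of these family names, a hyphen and a digit. The rule found 45 genes among the 46748 listed, of which 22 are acs genes, 12 acdh genes and 9 ech genes, beside hacd-1 and kat-1. The 9 libraries were made from whole N2 (wild-type) hermaphrodites aged 5 days and fall into 3 groups of 3 by RNA interference (RNAi). The first group was treated with RNAi against H28O16.1, the sequence name of atp-1, which encodes the alpha subunit of mitochondrial ATP synthase. The second was treated against B0395.3, a gene annotated as a relative of carnitine acyltransferases. The reference construct was L4440, the empty vector used for RNAi by feeding. All groups share the strain, the sex and the age, and no mutant allele or transgene is named for any of them. RNAi lowers an mRNA without deleting its gene, so the groups model a lowered mRNA and not a null allele.

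Fatty acids are broken down by a cycle of reactions on coenzyme A esters. Acyl-CoA synthetases (acs) activate the free acid, acyl-CoA dehydrogenases (acdh) introduce a double bond, enoyl-CoA hydratases (ech) add water to it, 3-hydroxyacyl-CoA dehydrogenases (hacd) oxidise the hydroxyl group, and thiolases (kat) release acetyl-CoA. In worms the intestine, the epidermis and the germ line use acyl-CoA for storage fat, membranes, cuticle lipids and yolk, and mitochondria and peroxisomes each carry out their own form of the cycle. Synthetases also feed synthesis of lipids, so the families named here serve both the making and the burning of fat.

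The libraries held 31236614 to 40990685 counts. The RNAi targets were low in the libraries labelled with them. The atp-1 mRNA stood at 70.7 ± 4.35 CPM in H28O16.1 libraries, against 1945 ± 72 CPM in L4440 libraries (SD, n = 3 each), and the B0395.3 mRNA stood at 13.9 ± 2.23 CPM in B0395.3 libraries, against 33.6 ± 1.77 CPM in L4440 libraries. CPM are counts relative to library totals that were scaled by trimmed means (TMM). Each target was also lower than in L4440 in the other RNAi group, by smaller steps in edgeR's quasi-likelihood test. The B0395.3 mRNA changed by -0.39 on the log2 scale in H28O16.1 libraries (adjusted p = 0.00297). The atp-1 mRNA changed by -0.14 in B0395.3 libraries (adjusted p = 0.0245). H28O16.1 replicate 3 stood apart from its group, with a chi-square per degree of freedom of 16.3 and 11.8 against replicates 1 and 2, where the other pairs of replicates lay between 2.54 and 5.36. Of the 45 genes, 43 passed the filter on low counts and were tested. The other two, acs-15 and acs-24, had 3 to 15 and 3 to 10 counts per library.

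Levels per length spanned more than 3 orders of magnitude in L4440 worms. In RPKM, computed here by dividing counts by exon length and library total, the highest synthetase was acs-13, at 303 ± 2.1 RPKM in H28O16.1, 300.1 ± 6.51 RPKM in B0395.3 and 312 ± 2.75 RPKM in L4440 libraries (SD, n = 3 each, as for every RPKM below). The gene lies on chromosome I (511044 to 519646, minus strand) of WBcel235, the build of all coordinates given here. It was followed by acs-19, an acetyl-CoA synthetase, and acs-4, a relative of the human long-chain synthetases of the ACSL type. These 3 genes made up 32.9%, 18.8% and 20.6% of the summed acs RPKM in H28O16.1 worms, 30.1%, 25.2% and 22.5% in B0395.3 worms, and 29.4%, 25.1% and 21.2% in L4440 worms. The order of these 3 levels was the same in L4440 and B0395.3 worms, whereas in H28O16.1 worms acs-4, at 189.8 ± 3.55 RPKM, stood above acs-19, at 174 ± 5.7 RPKM.

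Among the dehydrogenases the highest levels were those of acdh-3 (122 ± 2.8 RPKM in H28O16.1, 126 ± 1.65 RPKM in B0395.3 and 133 ± 1.4 RPKM in L4440) and acdh-12, the relative of the human very-long-chain dehydrogenase ACADVL (109 ± 1.46 RPKM, 121 ± 1.32 RPKM and 132 ± 2.33 RPKM in the same groups). In L4440 these levels differed by less than the SD of either gene. In the ech family ech-1.2, which encodes the alpha subunit of the mitochondrial trifunctional enzyme, stood at 191 ± 2.56 RPKM in H28O16.1, 181 ± 1.4 RPKM in B0395.3 and 189 ± 0.386 RPKM in L4440. Its paralogue ech-1.1 stood at 1.9 ± 0.313 RPKM, 1.29 ± 0.0423 RPKM and 1.61 ± 0.215 RPKM. At the other end acs-6, acs-9, acs-10, acs-15, acs-18, acs-24, acdh-5, acdh-6 and acdh-8 each had a group mean under 1 RPKM in every group.

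**Figure D1:**
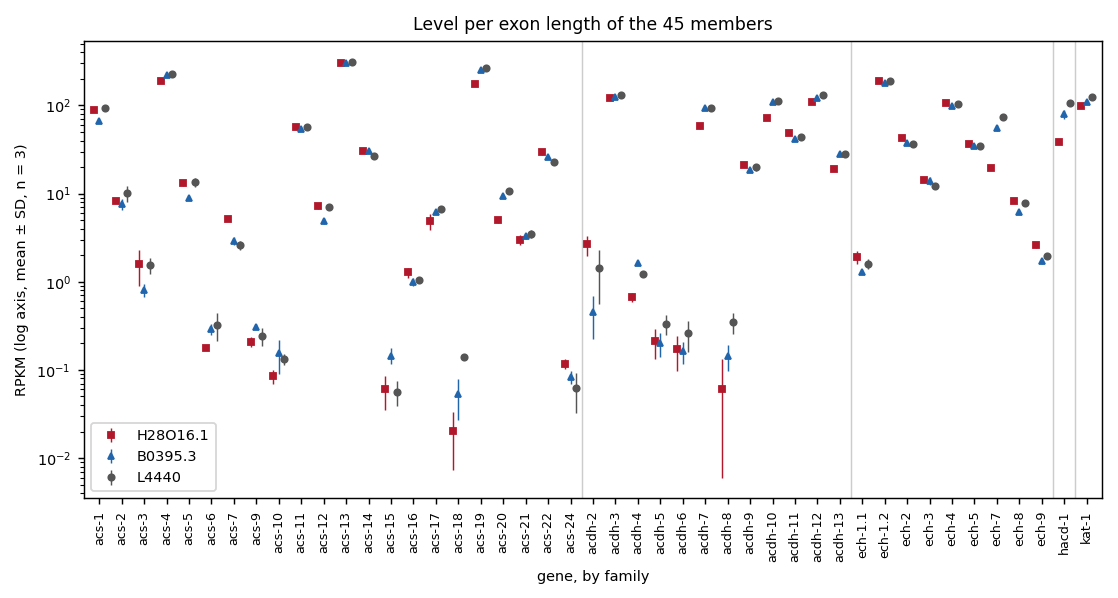
RPKM of the 45 genes, ordered by family, on a log axis. Squares, triangles and circles are means of 3 libraries of H28O16.1, B0395.3 and L4440, with bars of 1 SD, shortened at the lower end where they would reach 0. In L4440 the levels run from 0.0564 RPKM (acs-15) to 312 ± 2.75 RPKM (acs-13).

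The first comparison set H28O16.1 worms against L4440 worms. Among members with a mean of at least 10 CPM, the falls of greatest size were those of the hydratase gene ech-7 (-1.98 on the log2 scale), the hydroxyacyl-CoA dehydrogenase gene hacd-1 (-1.51) and the synthetase gene acs-20 (-1.15), and no member was called with a rise of 2-fold. Genes were called at an adjusted p under 0.05 in edgeR's quasi-likelihood test over all genes. Of the 43 tested members, 7 rose and 19 fell, and 17 did not pass. Of all 14622 genes tested 57.6% were called, 26.3% higher and 31.2% lower, and of the members 60.5%, 16.3% higher and 44.2% lower. The median log2 fold change was -0.17 for the members and -0.0042 for all genes tested. The share of members called was therefore close to that of all genes. Calls varied with level. Of the 28 members with a mean of at least 10 CPM 71.4% were called, 17.9% higher and 53.6% lower. Of the 7303 genes at that level 71.1% were called, 32.1% higher and 39.1% lower. Of the 15 members under 10 CPM 40% were called, 13.3% higher and 26.7% lower, where 20.6% and 23.4% of 7319 genes were. The 5 members called with a fall of 2-fold or more were ech-7, hacd-1, acs-20, acs-18 and acdh-8, and 8.38% of all genes tested fell and 3.45% rose by that much. Groups did not overlap for 6 members higher and 22 lower in H28O16.1, where the shares over all genes tested were 28.6% higher and 32.8% lower, or 61.4% in all.

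Markers of the worm's tissues moved in the same comparison. In H28O16.1 libraries 4 of the 6 tested embryo markers fell, namely sdz-28, pes-10, tbx-37 and tbx-38, and the summed level of the list was 18.9 to 21.5 CPM, against 75.7 to 80.6 CPM in L4440 libraries. Of 6 oocyte markers 5 fell and 1 rose (summed level 7029 to 7365 CPM, against 8323 to 8643 CPM in L4440), and of 7 intestine markers 4 rose and 1 fell (377 to 422 CPM, against 342 to 381 CPM in L4440). Of 6 body wall muscle markers 2 rose, with a summed level of 559.6 to 908 CPM in H28O16.1, highest in replicate 3, against 553 to 678 CPM in L4440. Among 6 markers each, 1 rose and 3 fell for hypodermis, 1 rose and 1 fell for neurons, and 2 rose and 2 fell for sperm. The embryo marker med-1 was at 0 in all H28O16.1 libraries, and no marker was at 0 in all 9 libraries. The part of these markers' cells in the members' changes was not tested, and in RNA of whole worms fewer cells of a type and less RNA per cell cannot be told apart.

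In B0395.3 worms, set against the same L4440 libraries, members fell far more often than they rose: 21 of the 43 tested fell, 1 (acs-14) rose and 21 did not pass. Of all genes tested 27.2% were called, 12.6% higher and 14.6% lower, and of the members 51.2%, 2.33% higher and 48.8% lower. The falls were small, with a median log2 fold change over the members of -0.16, against 0.0079 over all genes tested. Only acdh-2 (-1.69), acs-18 (-1.4) and acs-3 (-1.01) were called with a fall of 2-fold or more, and over all genes tested 2.74% fell and 1.69% rose by that much. Groups did not overlap for 3 members higher and 25 lower in B0395.3, where the shares over all genes tested were 23.8% higher and 23.3% lower, or 47.1% in all. Among members with a mean of at least 10 CPM the falls of acs-5 (-0.64), acs-12 (-0.58), acs-1 (-0.54), hacd-1 (-0.49) and ech-7 (-0.48) led.

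The counts in B0395.3 worms varied with level, with scaling and with the libraries in the fit. Among the 28 members with a mean of at least 10 CPM, 17 fell in B0395.3 worms (60.7%), where 18.4% of the 7303 genes at that level did. Among the 15 members under 10 CPM 4 fell (26.7%), where 10.9% of 7319 genes did. In a fit of the 6 libraries compared, 2473 genes were called higher and 2659 lower in B0395.3. Without H28O16.1 replicate 3 these counts were 2409 and 2656. With library totals in place of TMM, 3164 genes were called higher and 1557 lower in B0395.3, where the TMM scaling of all 9 libraries gave 1836 and 2140, and the members' counts became 3 higher and 16 lower. The count of 1 higher became 0 without L4440 replicate 2 or B0395.3 replicate 3, and 2 without B0395.3 replicate 2 or without any single H28O16.1 library. The rise of acs-14 itself was also lost without B0395.3 replicate 1 or L4440 replicate 3, so these counts do not follow acs-14 alone. Of 6 body wall muscle markers 5 fell in B0395.3 worms (summed level 316 to 367 CPM, against 553 to 678 CPM in L4440) and of 7 intestine markers 3 fell and 1 rose (264 to 278 CPM, against 342 to 381 CPM in L4440). Of 6 tested embryo markers 4 rose and 1 fell (101 to 102 CPM in B0395.3, against 75.7 to 80.6 CPM in L4440), of 6 oocyte markers 3 fell, and of 6 each for hypodermis, sperm and neurons 1 fell, 1 fell and 1 rose in that order. Their part in the members' changes was not tested.

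**Figure D2:**
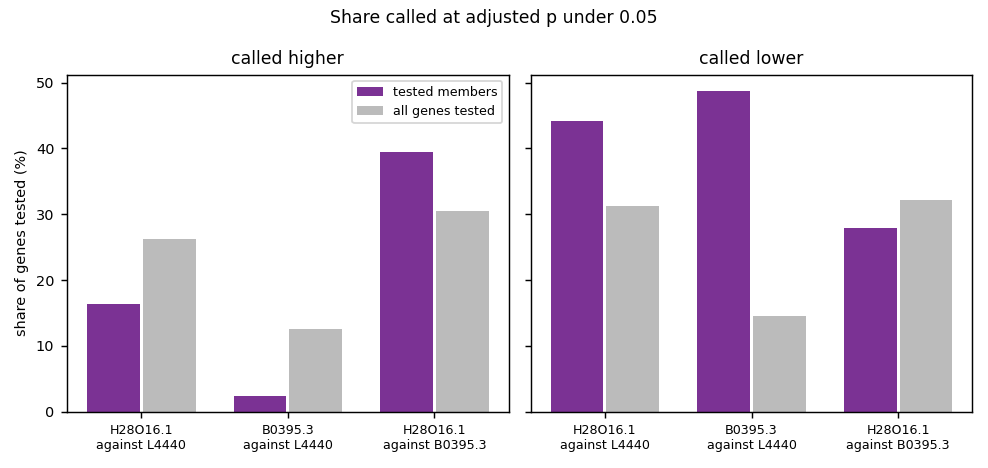
Share of genes called higher (left) and lower (right) at an adjusted p under 0.05 in each comparison, in percent of genes tested. Purple bars are the 43 tested members and grey bars all 14622 genes. In B0395.3 worms 48.8% of the members were lower, against 14.6% of all genes, and in H28O16.1 worms 44.2% against 31.2%.

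H28O16.1 was then compared directly with B0395.3. Of the 43 tested members 17 were higher and 12 lower in H28O16.1, and 14 did not pass. Of all genes tested 62.6% were called, 30.5% higher and 32.1% lower, and of the members 67.4%, 39.5% higher and 27.9% lower. By 2-fold or more, 2 members were higher (acdh-2 and acs-3) and 3 lower (acdh-4, ech-7 and hacd-1), and over all genes tested 5.72% were higher and 9.61% lower by that much. Groups did not overlap for 17 members higher and 14 lower, where the shares over all genes tested were 32.7% higher and 34.2% lower, or 66.8% in all. Lower in H28O16.1 were hacd-1, kat-1, ech-7, the medium-chain dehydrogenase genes acdh-7 and acdh-10, and 4 synthetase genes, acs-4, acs-17, acs-19 and acs-20, beside acdh-4, acdh-12 and acdh-13. Higher in H28O16.1 were 8 acs and 6 ech genes, among them acs-1 (0.40), acs-5 (0.55) and ech-8 (0.42), and 3 acdh genes, led by acdh-2 (2.52). Both comparisons with L4440 share their control libraries. The members that passed in one or both are therefore named as an account of the members only. Those that passed as lower in each RNAi group were acdh-3, acdh-12, acs-1, acs-11, acs-13, acs-18, acs-19, acs-20, ech-7, hacd-1 and kat-1, acs-14 passed as higher in each, and acdh-11 passed as higher in H28O16.1 and lower in B0395.3. In H28O16.1 but not in B0395.3, 8 members passed as lower (acdh-4, acdh-7, acdh-8, acdh-10, acdh-13, acs-4, acs-6 and acs-17) and 5 as higher (acs-7, acs-22, ech-2, ech-3 and ech-9). In B0395.3 but not in H28O16.1, 9 passed as lower (acdh-2, acs-2, acs-3, acs-5, acs-12, ech-1.1, ech-1.2, ech-4 and ech-8). The remaining 8 passed in neither: acdh-5, acdh-6, acdh-9, acs-9, acs-10, acs-16, acs-21 and ech-5. Passing in one comparison and not in the other does not show a difference, and of the 22 members that passed in a single one, the direct test of H28O16.1 against B0395.3 called all but acdh-8, acs-6, acs-2 and ech-3.

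**Figure D3:**
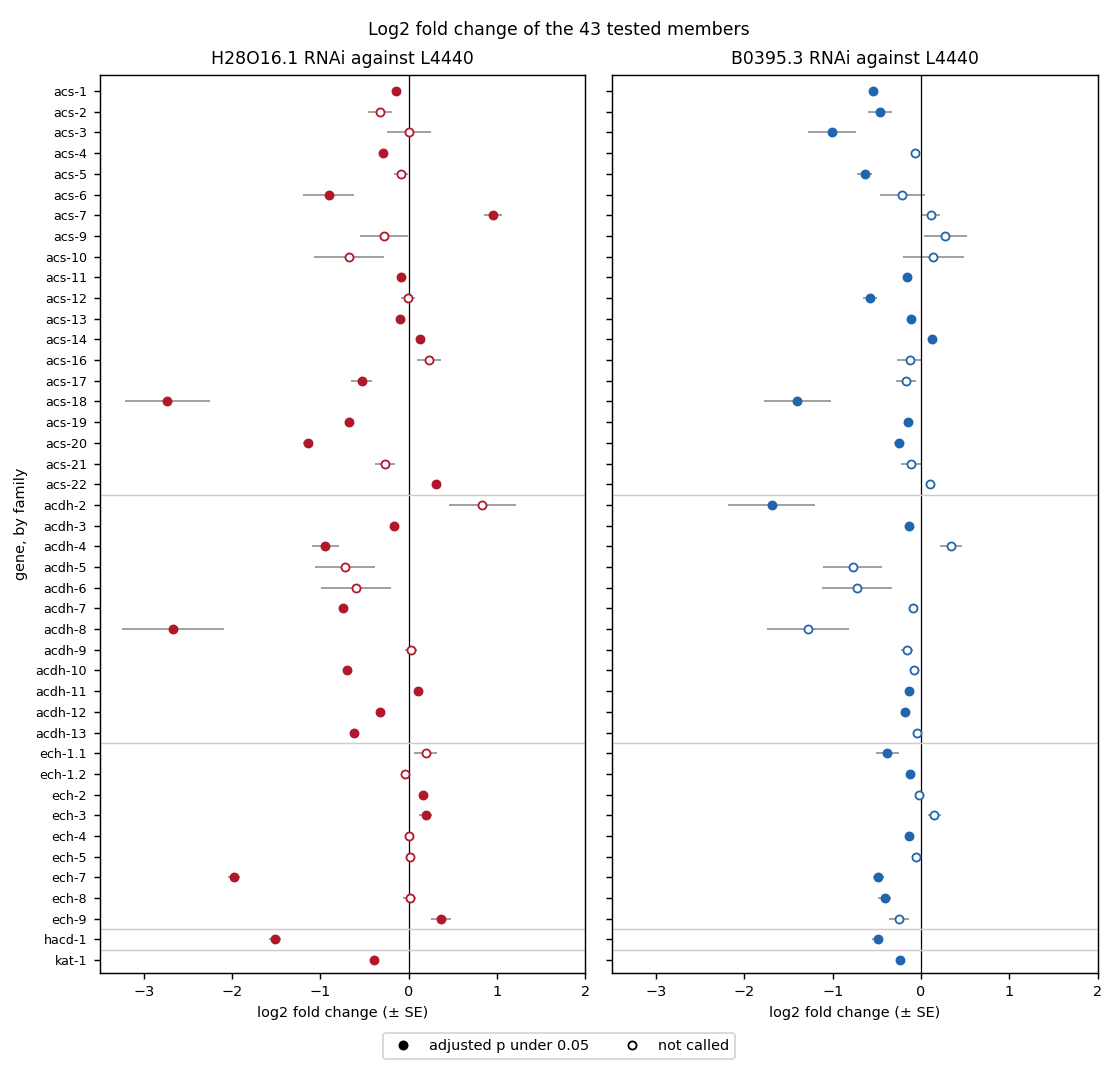
Log2 fold change against L4440 for the 43 tested members, in H28O16.1 worms (left) and B0395.3 worms (right). Bars are 1 SE, filled symbols passed an adjusted p under 0.05, and horizontal lines part the acs, acdh, ech, hacd and kat families. The values for ech-7 and hacd-1 lie at -1.98 and -1.51 on the left and at -0.48 and -0.49 on the right.

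Among the synthetases, which activate fatty acids, 3 rose and 9 fell of the 20 tested in H28O16.1 worms, and 1 rose and 10 fell in B0395.3 worms. Apart from acs-18, which had few counts, the largest fall in H28O16.1 was that of acs-20, a relative of the mammalian fatty acid transport proteins that is needed for the lipid barrier of the cuticle. It lies on chromosome IV (12392121 to 12398706, minus strand). It stood at 11.52, 12.1 and 13.1 CPM in the H28O16.1 libraries, at 22.5, 22.9 and 22.9 CPM in the B0395.3 libraries and at 26.9, 26.9 and 27.6 CPM in the L4440 libraries. The 3 groups did not overlap, and H28O16.1 was lowest. The fall passed the test in H28O16.1 (log2 fold change -1.15, SE 0.057, adjusted p = 2.90e-09) and in B0395.3 (log2 fold change -0.25, SE 0.054, adjusted p = 0.00334). The RNAi groups also differed (-0.89, adjusted p = 2.21e-08). Its paralogue acs-22, of the same protein type, rose in H28O16.1 to 71.7 ± 4.79 CPM, against 58 ± 2.4 CPM in L4440 (log2 fold change 0.31, SE 0.048, adjusted p = 0.000119), and its value in B0395.3 was 0.10 (adjusted p = 0.154). The gene acs-22 was chosen after its values were seen.

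The acetyl-CoA synthetase gene acs-19, which turns acetate into acetyl-CoA, lies on chromosome III (3864489 to 3867098, plus strand). It stood at 394, 409.95 and 399 CPM in H28O16.1, at 571, 589 and 571 CPM in B0395.3 and at 637, 659 and 626 CPM in L4440 libraries. Again no groups overlapped, and the step between H28O16.1 and B0395.3 was larger than that between B0395.3 and L4440. The log2 fold change was -0.68 in H28O16.1 (SE 0.03, adjusted p = 9.04e-10) and -0.15 in B0395.3 (SE 0.029, adjusted p = 0.00182). The direct difference was -0.53 (adjusted p = 6.10e-09). The most abundant synthetase, acs-13, changed little, at 818, 793 and 788 CPM in H28O16.1, 774, 814 and 773 CPM in B0395.3 and 859.7, 863 and 838 CPM in L4440 libraries. Its changes of -0.094 (adjusted p = 0.0186) in H28O16.1 and -0.12 (adjusted p = 0.0122) in B0395.3 passed the test but not every alternative. Without L4440 replicate 1 the adjusted p of acs-13 was 0.0915 in H28O16.1 and 0.0567 in B0395.3, without L4440 replicate 2 or H28O16.1 replicate 2 it was 0.0711 and 0.0586 in H28O16.1, and without B0395.3 replicate 1 or 3 it was 0.0578 and 0.0626 in B0395.3. The call in H28O16.1 was also lost with library totals (adjusted p = 0.179), RLE scaling (0.0586), no filter (0.0544) and DESeq2 (0.06), and that in B0395.3 with library totals (0.106).

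Other synthetases were lower in B0395.3 than in either other group. The gene acs-1 is needed to activate the branched-chain fatty acids that worms make, and lies on chromosome V (6524989 to 6532089, plus strand). It stood at 207, 203 and 217 CPM in H28O16.1, at 154, 161 and 160.03 CPM in B0395.3 and at 228, 227 and 237 CPM in L4440 libraries. All B0395.3 libraries were below those of both other groups, and the H28O16.1 libraries lay below the L4440 libraries by a smaller step. The change was -0.54 in B0395.3 (SE 0.032, adjusted p = 5.76e-08) and -0.14 in H28O16.1 (adjusted p = 0.00186), and the direct difference of H28O16.1 from B0395.3 was 0.40 (adjusted p = 1.55e-07). The gene acs-5, on chromosome III (13540139 to 13543534, minus strand), stood at 26.3, 27 and 30.01 CPM in H28O16.1, 18.5, 19.1 and 19.2 CPM in B0395.3 and 29.8, 33.1 and 25.7 CPM in L4440 libraries. The H28O16.1 and L4440 ranges overlapped, and B0395.3 lay below both (-0.64 in B0395.3, SE 0.083, adjusted p = 8.22e-05, and -0.089 in H28O16.1, adjusted p = 0.376). The gene acs-12, chosen after its values were seen, had values of the same kind, with -0.58 in B0395.3 (adjusted p = 9.09e-05), -0.0093 in H28O16.1 (adjusted p = 0.924) and a direct difference of 0.57 (adjusted p = 2.43e-05).

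The gene acs-3, which has been linked to fat uptake through the nuclear receptor NHR-25, was low throughout. It stood at 2.53, 2.45 and 4.97 CPM in H28O16.1, at 1.36, 1.77 and 1.87 CPM in B0395.3 and at 2.92, 4.2 and 2.96 CPM in L4440 libraries. H28O16.1 replicate 3 lay above all L4440 libraries, and the other H28O16.1 libraries lay below them. The fall in B0395.3 passed the test (log2 fold change -1.01, SE 0.27, adjusted p = 0.0137) but not without B0395.3 replicate 1 (adjusted p = 0.063) or L4440 replicate 2 (0.069). In H28O16.1 the change was 0.0025 (adjusted p = 0.994), and without replicate 3 it was -0.43 (adjusted p = 0.051). The direct difference of H28O16.1 from B0395.3 for acs-3, 1.01 (adjusted p = 0.00528), was 0.59 without H28O16.1 replicate 3 (adjusted p = 0.0164). The fasting-induced mitochondrial synthetase gene acs-2, chosen after its values were seen, averaged 17.2 ± 0.757 CPM in H28O16.1, 15.6 ± 2.37 CPM in B0395.3 and 21.5 ± 4.45 CPM in L4440. Its fall in B0395.3 (-0.47, adjusted p = 0.0209) was lost without L4440 replicate 1 (adjusted p = 0.0886) or 2 (0.096), or without B0395.3 replicate 1 (0.0821) or 3 (0.096).

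The highest rise of a synthetase was that of acs-7, whose product acts in peroxisomes in the making of ascaroside signals, and which was chosen after its values were seen. It stood at 8.8, 8.69 and 8.39 CPM in H28O16.1, at 5.05, 4.28 and 5.07 CPM in B0395.3 and at 5.01, 4.04 and 4.35 CPM in L4440 libraries. All H28O16.1 libraries were above all others (log2 fold change 0.95, SE 0.10, adjusted p = 2.88e-06). Its value in B0395.3 was 0.11 (adjusted p = 0.49). The gene acs-18 was near the limit of counting, with 3, 1 and 1 counts in H28O16.1, 7, 2 and 5 in B0395.3 and 12, 11 and 13 in L4440 libraries. The ratio of scaled counts was 0.142 for H28O16.1 over L4440, with an exact binomial 95% interval for counting error only of 0.0434 to 0.362, and 0.373 (0.186 to 0.709) for B0395.3 over L4440. The fitted log2 fold changes of acs-18 were -2.73 in H28O16.1 (adjusted p = 0.000275) and -1.4 in B0395.3 (adjusted p = 0.0151), the second lost without B0395.3 replicate 2 (adjusted p = 0.0627) or 3 (0.052). The direct difference of acs-18 was -1.33 (adjusted p = 0.0734), and it passed without H28O16.1 replicate 1 (adjusted p = 0.0381) or B0395.3 replicate 2 (0.0383).

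Among the dehydrogenases 1 rose and 7 fell of 12 in H28O16.1 worms, and 4 fell in B0395.3 worms. The clearest falls in H28O16.1 were those of acdh-7 and acdh-10, both relatives of the human medium-chain dehydrogenase ACADM. These genes are close neighbours, acdh-10 on chromosome X (17213144 to 17214903, minus strand) and acdh-7 on chromosome X (17215018 to 17217105, minus strand). The acdh-7 mRNA stood at 75.6, 75 and 83.3 CPM in H28O16.1, at 118.7, 128 and 119.9 CPM in B0395.3 and at 129, 134 and 128 CPM in L4440 libraries. The acdh-10 mRNA stood at 96.9, 96 and 101 CPM in H28O16.1, at 147, 156 and 149 CPM in B0395.3 and at 156, 161 and 160.02 CPM in L4440 libraries. For both genes every H28O16.1 library was below every other library, and the B0395.3 libraries were just below the L4440 libraries. The log2 fold changes in H28O16.1 were -0.74 for acdh-7 (SE 0.043, adjusted p = 1.21e-08) and -0.70 for acdh-10 (SE 0.031, adjusted p = 1.01e-09). In B0395.3 they were -0.091 and -0.082, and neither passed (adjusted p = 0.131 and 0.0619). Without H28O16.1 replicate 3 both passed in B0395.3 (adjusted p = 0.0274 for acdh-7 and 0.0221 for acdh-10), as they did in a fit of the 6 libraries compared (0.0317 and 0.0257), and acdh-10 also passed without B0395.3 replicate 2 (0.0369). The ratio of acdh-10 to acdh-7 CPM lay between 1.21 and 1.28 in H28O16.1, between 1.21 and 1.24 in B0395.3 and between 1.2 and 1.25 in L4440 libraries, so the neighbours kept nearly the same proportion in all 9.

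Another relative of ACADM, acdh-8, was almost absent, with 2, 6 and 0 counts in H28O16.1, 11, 5 and 7 in B0395.3 and 20, 21 and 13 in L4440 libraries. Its ratio of scaled counts was 0.151 for H28O16.1 over L4440 (exact 95% interval for counting error 0.0621 to 0.320) and 0.409 for B0395.3 over L4440 (0.239 to 0.677). The fitted change of acdh-8 in H28O16.1 was -2.67 (adjusted p = 0.00146), and without H28O16.1 replicate 2 it was -4.08. In B0395.3 it was -1.28 (adjusted p = 0.0555). It passed there under 5 of the 15 alternatives, namely without H28O16.1 replicate 2 (adjusted p = 0.0312) or 3 (0.0157), without L4440 replicate 3 (0.049), in a fit of the 6 libraries compared (0.0107) and with no filter (0.00857). The direct difference of acdh-8 was -1.39 (adjusted p = 0.0982), and it passed without H28O16.1 replicate 2 (-2.79, adjusted p = 0.012) and with no filter (0.049).

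The very-long-chain type gene acdh-12 lies on chromosome II (7192429 to 7195641, minus strand). It stood at 226, 221 and 216 CPM in H28O16.1, 245, 246 and 239.8 CPM in B0395.3 and 283, 276 and 273 CPM in L4440 libraries. The groups did not overlap, and each step exceeded the SD within any group, which was at most 4.68 CPM. The falls were -0.33 in H28O16.1 (SE 0.026, adjusted p = 2.03e-07) and -0.19 in B0395.3 (SE 0.026, adjusted p = 0.000142). The gene acdh-3, whose mean RPKM over the 9 libraries was the highest of its family, stood at 189, 181 and 176 CPM in H28O16.1, 186, 185 and 187 CPM in B0395.3 and 205, 205 and 205 CPM in L4440 libraries. Both RNAi groups lay below L4440 (-0.17, adjusted p = 0.000136 in H28O16.1, and -0.14, adjusted p = 0.00216 in B0395.3), and they overlapped each other (-0.034, adjusted p = 0.307). Exons of K06A5.3 and knl-2 on the opposite strand cover 8.17% and 6.11% of the exon bases of acdh-3, and the counts carry no strand that could part them. Other members share exon bases too. Among them, Y65B4BL.7 covers 7.33% of acs-13 and ins-13 covers 4.65% of acdh-2, each on the same strand.

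The gene acdh-4 stood at 0.967, 0.879 and 0.758 CPM in H28O16.1, 2.15, 2.08 and 2.08 CPM in B0395.3 and 1.68, 1.66 and 1.67 CPM in L4440 libraries. It was lowest in H28O16.1 and highest in B0395.3, with no overlap between groups. The fall in H28O16.1 passed (log2 fold change -0.94, SE 0.15, adjusted p = 0.000124), the value in B0395.3 did not (0.34, adjusted p = 0.0692, but 0.0316 with library totals in place of TMM), and the direct difference was -1.28 (adjusted p = 4.55e-06). The gene acdh-2, a close relative of acdh-1, stood at 3.74, 6.09 and 4.89 CPM in H28O16.1, 1.32, 0.685 and 0.509 CPM in B0395.3 and 3.55, 3.93 and 0.809 CPM in L4440 libraries. L4440 replicate 3 lay within the B0395.3 range and the other L4440 libraries above it. The fall of acdh-2 in B0395.3 (log2 fold change -1.69, SE 0.49, adjusted p = 0.0216) was lost without L4440 replicate 1 (adjusted p = 0.0769) or 2 (0.102), or without B0395.3 replicate 2 (0.0759) or 3 (0.0942). The direct difference of H28O16.1 from B0395.3 rested on groups that did not overlap (2.52, adjusted p = 0.000323), and the value in H28O16.1 against L4440 was 0.83 (adjusted p = 0.0795). That value passed without L4440 replicate 2 (1.19, adjusted p = 0.036) and with no filter on low counts (0.85, adjusted p = 1.44e-09), and ran from 0.39 to 1.19 over the 15 alternatives. With no filter the libraries were the same and the value nearly so, so the lower adjusted p does not reflect closer replicates. For the gene acdh-1 itself, which is no member, the changes were -2.21 in H28O16.1 and -3.03 in B0395.3. The sources used here do not say how reads shared by close copies were counted.

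The gene acdh-11, whose product binds medium-length fatty acids and limits desaturase expression at raised temperature, was called in opposite directions. It stood at 89.5, 93.6 and 96.5 CPM in H28O16.1, 78.1, 78.6 and 80.9 CPM in B0395.3 and 85.6, 85.4 and 89.9 CPM in L4440 libraries. The B0395.3 libraries lay below all L4440 libraries, and the H28O16.1 and L4440 ranges overlapped. The rise in H28O16.1 was 0.10 (adjusted p = 0.0285) and the fall in B0395.3 -0.13 (adjusted p = 0.0134), and the direct difference of acdh-11 was 0.24 (adjusted p = 7.43e-05). Without L4440 replicate 1 or 2, or H28O16.1 replicate 2 or 3, the rise of acdh-11 had an adjusted p of 0.0711, 0.0911, 0.0661 and 0.0714. Without B0395.3 replicate 1 or 2, or L4440 replicate 3, its fall had an adjusted p of 0.057, 0.0545 and 0.0795. With upper-quartile scaling the adjusted p of acdh-11 was 0.0661 in H28O16.1 and 0.0537 in B0395.3, and with library totals it was 0.191 in B0395.3.

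**Figure D4:**
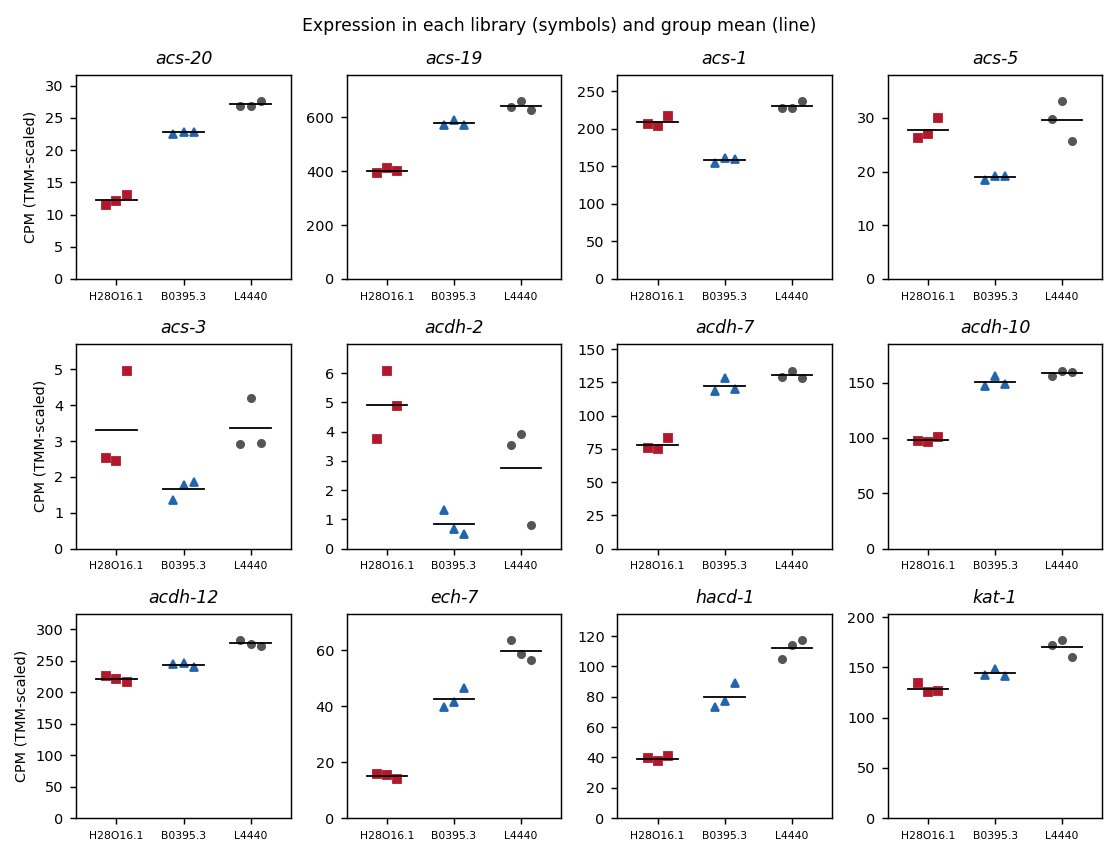
CPM of 12 genes in each of the 9 libraries, with 1 panel per gene and axes from 0. Squares, triangles and circles are H28O16.1, B0395.3 and L4440 libraries, and black lines are group means. In the panels of ech-7, hacd-1, acs-19, acs-20, acdh-7 and acdh-10 H28O16.1 is lowest, in those of acs-1, acs-5, acs-3 and acdh-2 B0395.3 is lowest, and 1 H28O16.1 library of acs-3 and 1 L4440 library of acdh-2 stand apart from their groups.

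Among the hydratases 3 rose and 1 fell of 9 in H28O16.1 worms, and 5 fell in B0395.3 worms. The single fall in H28O16.1 was that of ech-7, a crotonase-type gene on chromosome I (14367616 to 14369773, minus strand). It stood at 15.7, 15.4 and 14.1 CPM in H28O16.1, at 39.7, 41.6 and 46.3 CPM in B0395.3 and at 63.5, 58.7 and 56.4 CPM in L4440 libraries. The 3 groups did not overlap, with H28O16.1 lowest and B0395.3 between the others. The changes were -1.98 in H28O16.1 (SE 0.069, adjusted p = 1.13e-10) and -0.48 in B0395.3 (SE 0.063, adjusted p = 7.81e-05), and the direct difference was -1.5 (adjusted p = 1.05e-09). By RPKM ech-7 held 4.64% of its family in H28O16.1, 13% in B0395.3 and 16.2% in L4440 worms.

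The main hydratase gene by level, ech-1.2, lies on chromosome I (6206955 to 6211155, minus strand) and stood at 505, 500.2 and 506 CPM in H28O16.1, 478, 477 and 473 CPM in B0395.3 and 516, 523 and 514 CPM in L4440 libraries. It was lower in B0395.3 than in both other groups by a small step (log2 fold change -0.12, SE 0.024, adjusted p = 0.00233), and its value in H28O16.1 was -0.039 (adjusted p = 0.192). With library totals in place of TMM the fall of ech-1.2 in B0395.3 had an adjusted p of 0.0677. The gene ech-2, on chromosome IV (11854993 to 11856351, minus strand), stood at 46.8, 44.3 and 42.6 CPM in H28O16.1, 37.3, 40.5 and 39.95 CPM in B0395.3 and 40.7, 39.1 and 39.5 CPM in L4440 libraries. All H28O16.1 libraries lay above all others (log2 fold change 0.16, SE 0.048, adjusted p = 0.00966), and its value in B0395.3 was -0.019 (adjusted p = 0.813).

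The genes ech-8 and ech-9 encode relatives of the bifunctional enzyme of peroxisomes and lie side by side on the minus strand of chromosome IV, with 1296 bases between them. The ech-8 mRNA stood at 11.9, 12 and 11.4 CPM in H28O16.1, 8.85, 8.68 and 8.75 CPM in B0395.3 and 10.8, 11.52 and 12.6 CPM in L4440 libraries. B0395.3 lay below both other groups, which overlapped (-0.41 in B0395.3, SE 0.072, adjusted p = 0.000869, and 0.0089 in H28O16.1, adjusted p = 0.924). For ech-9, chosen after its values were seen, the change in H28O16.1 was 0.36 (adjusted p = 0.0122, and 0.0534 without H28O16.1 replicate 1) and that in B0395.3 -0.25 (adjusted p = 0.126). The ratio of ech-8 to ech-9 CPM was 2.48 to 2.89 in H28O16.1, 2.93 to 3.38 in B0395.3 and 3.1 to 3.74 in L4440 libraries.

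The families named for the later steps of the cycle, hacd and kat, are held here by hacd-1 and kat-1. The gene hacd-1, a relative of the human 3-hydroxyacyl-CoA dehydrogenase HADH, lies on chromosome V (1460369 to 1461613, plus strand). It stood at 39.6, 37.5 and 40.7 CPM in H28O16.1, at 73.4, 76.9 and 89 CPM in B0395.3 and at 105, 114.4 and 117 CPM in L4440 libraries. The 3 groups did not overlap. The changes were -1.51 in H28O16.1 (SE 0.067, adjusted p = 1.03e-09) and -0.49 in B0395.3 (SE 0.064, adjusted p = 7.83e-05), with a direct difference of -1.02 (adjusted p = 2.84e-08). The thiolase gene kat-1, which limits fat storage in worms, lies on chromosome II (7073814 to 7075511, plus strand). It stood at 135, 125 and 126 CPM in H28O16.1, 142.04, 149 and 141.6 CPM in B0395.3 and 173, 177 and 159.8 CPM in L4440 libraries. H28O16.1 was lowest and L4440 highest, with no overlap (log2 fold change -0.40, SE 0.041, adjusted p = 2.11e-06 in H28O16.1, and log2 fold change -0.24, SE 0.04, adjusted p = 0.000701 in B0395.3). The direct difference of kat-1 was -0.16 (adjusted p = 0.00351).

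Of the calls against L4440 in H28O16.1, 19 of 26 held under all 15 alternatives. Besides acdh-11, acs-13 and ech-9, the exceptions were acs-6, acs-11, acs-14 and ech-3, named for that reason. The fall of acs-6 (-0.91, adjusted p = 0.0158) had an adjusted p of 0.0932 without L4440 replicate 1 and 0.0833 in DESeq2. The fall of acs-11 (-0.086, adjusted p = 0.0307) was lost under 10 alternatives, among them those without H28O16.1 replicate 1 or 2 (adjusted p = 0.062 and 0.109), L4440 replicate 2 or 3 (0.128 and 0.138) or B0395.3 replicate 2 (0.0677), and with library totals its adjusted p was highest (0.39). The rise of acs-14 (0.13, adjusted p = 0.018) was lost without L4440 replicate 2 (adjusted p = 0.0702) or H28O16.1 replicate 2 (0.0738). The rise of ech-3 (0.19, adjusted p = 0.0485) was lost without any single L4440 library (adjusted p from 0.063 to 0.105), without H28O16.1 replicate 2 (0.104) or 3 (0.0927) and without B0395.3 replicate 3 (0.0661), with upper-quartile scaling (0.0701) and in DESeq2 (0.0507). Exons of F43H9.3 on the opposite strand cover 12.3% of those of ech-3. Without H28O16.1 replicate 2, 4 members in place of 7 rose.

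Of the calls in B0395.3, 12 of 22 held under all 15 alternatives. Besides acdh-2, acdh-11, acs-2, acs-3, acs-13, acs-18 and ech-1.2, this concerned 3 genes. The rise of acs-14 (0.13, adjusted p = 0.0345) was lost without B0395.3 replicate 1 or 3 (adjusted p = 0.124 and 0.0976) and without L4440 replicate 2 or 3 (0.137 and 0.0958), and with no filter (0.0832). The fall of ech-4 (-0.13, adjusted p = 0.00945), a peroxisomal isomerase relative, was lost with library totals in place of TMM (adjusted p = 0.0726). The fall of ech-1.1 (-0.38, adjusted p = 0.0494) was lost under 10 alternatives, among them those without any single B0395.3 library (adjusted p from 0.093 to 0.127), L4440 replicate 2 (0.0761) or 3 (0.214), or H28O16.1 replicate 2 (0.0536).

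Between H28O16.1 and B0395.3, 24 of 29 calls held under all 15 alternatives. The exceptions were acdh-9 (0.19, adjusted p = 0.107 without B0395.3 replicate 1 and 0.0588 without H28O16.1 replicate 1), acs-17 (-0.36, adjusted p = 0.0677 without B0395.3 replicate 2, and a change of -0.21 without H28O16.1 replicate 1) and ech-1.2 (0.082, adjusted p = 0.0795 with upper-quartile scaling). The rise of acs-16 (0.36, adjusted p = 0.0365) was lost without B0395.3 replicate 1 or 2 (adjusted p = 0.14 and 0.0711) and without H28O16.1 replicate 1 or 3 (0.0586 and 0.144), and also with upper-quartile scaling (0.0565), in a fit of the 6 libraries (0.0509) and in DESeq2 (0.119). That of acs-11 (0.076, adjusted p = 0.0492) was lost under 11 alternatives, with its highest adjusted p under upper-quartile scaling (0.217), and among them without any single B0395.3 library (adjusted p from 0.0533 to 0.167), without H28O16.1 replicate 1 (0.067) or 3 (0.0963) and without L4440 replicate 2 (0.0516).

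Summed over each family, CPM were lower in both RNAi groups than in L4440, with no overlap, also with library totals in place of TMM. The 22 acs genes summed to 2242 to 2273 CPM in H28O16.1, 2414 to 2504 CPM in B0395.3 and 2689 to 2740.5 CPM in L4440 libraries. The 12 acdh genes summed to 739.7 to 749.9, 859 to 878 and 945 to 953 CPM in the same groups. The 9 ech genes summed to 779 to 797, 758 to 762 and 826 to 843 CPM. In the acs and acdh families H28O16.1 was the lowest group, and in the ech family, where ech-1.2 dominates, B0395.3 was. From L4440 to H28O16.1 the mean ech sum went from 836 to 786 CPM, and ech-7 alone from 59.5 to 15.1 CPM. In that comparison 3 ech genes rose and 1 fell. The mean acs sum went from 2710 to 2261 CPM, and acs-19 alone from 641 to 401 CPM. Of the tested acs genes 3 rose and 9 fell there.

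Other genes of acyl-CoA metabolism were counted by lists drawn from textbook pathways, with the shares over all genes tested given above as their background. Those shares are not matched to the level of the listed genes. Of 9 measured genes of mitochondrial beta-oxidation and electron transfer outside the families, 1 rose and 6 fell in H28O16.1 (median -0.24), and 7 fell in B0395.3 (median -0.16). The leading falls in H28O16.1 were those of B0272.3, another relative of HADH (-0.71), and the thiolase genes T02G5.7 (-0.50) and acaa-2 (-0.45). In B0395.3 the falls with the smallest p were those of T02G5.7 (-0.34), acaa-2 (-0.24) and let-721 (-0.150). The product of let-721 passes electrons from acyl-CoA dehydrogenases to the respiratory chain. Larger falls than that of let-721 were also called for F23C8.5 (-0.22), F27D4.1 (-0.163) and hadb-1 (-0.154). Of 14 peroxisomal genes 4 rose and 2 fell in H28O16.1, and 8 fell in B0395.3. The acyl-CoA oxidase genes acox-1.3 (1.63) and acox-1.2 (-1.26) moved apart in H28O16.1. In B0395.3 the falls with the smallest p were those of acox-1.4 (-1.17), acox-1.2 (-0.98) and acox-1.5 (-0.91). The largest fall there was that of acox-1.3 (-1.22, adjusted p = 0.00268), which rose in H28O16.1.

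Of 10 genes of propionate breakdown, 3 rose and 7 fell in H28O16.1 and 8 fell in B0395.3. The shunt genes acdh-1 and hphd-1 led in both, with -2.21 and -1.61 in H28O16.1 and -3.03 and -1.95 in B0395.3, and mce-1 of the canonical path rose in H28O16.1 (0.44). Of 8 measured genes of carnitine acyl transfer, B0395.3 included, 2 rose and 4 fell in H28O16.1, and 3 rose and 3 fell in B0395.3. The carnitine palmitoyltransferase gene cpt-6 fell in H28O16.1 (-0.82) and rose in B0395.3 (0.40), cpt-4 rose in both (0.99 and 1.62), and cpt-3 rose in H28O16.1 (1.41). Of 14 genes of fatty acid synthesis 2 rose and 7 fell in H28O16.1, led by the elongase genes elo-2 (-1.32), elo-5 (-0.83) and elo-6 (-0.81). Of the same genes 1 rose and 9 fell in B0395.3, led by fat-5 (-1.26) and fat-7 (-1.04), which encode desaturases, and by elo-6 (-1.0).

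Of 14 regulators of fat oxidation 2 rose and 5 fell in H28O16.1 and 2 rose and 4 fell in B0395.3. The nuclear receptor gene nhr-49, whose product drives acs-2 and other oxidation genes, rose in H28O16.1 (0.22, adjusted p = 2.23e-05). The receptor genes nhr-68 and nhr-114 fell in H28O16.1 (-0.57 and -0.75) and in B0395.3 (-0.84 and -1.04). NHR-68 is known to drive the propionate shunt genes, and its part in their falls was not tested. The gene hlh-30, for a regulator of lysosomes and fat breakdown, rose in B0395.3 (0.28, adjusted p = 0.000626). In the direct comparison of H28O16.1 with B0395.3, 9 of the 14 peroxisomal genes were higher and 1 lower, and 7 of the 10 propionate genes were higher and 3 lower. Of the 9 other mitochondrial genes 3 were higher and 4 lower.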

How the data were processed

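Per the labels' protocols, libraries were made from poly(A) RNA with a TruSeq v2 kit, which does not mark strand. Tools and build are known only by name from the submitters' processing notes: featureCounts 1.4.6-p4, STAR 2.4.1d, WBcel235 and bcl2fastq 1.8.4. The deposited table holds the authors' whole-number counts per gene, not normalized. The authors' RPKM table was not used here, and RPKM were computed from the counts with each library's own total and the union of annotated exons. Names and coordinates come from the Ensembl 115 annotation of WBcel235, which holds 46449 of the 46748 identifiers.

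The test was that of edgeR 4.0.16 under R 4.3.3 (filterByExpr with a minimum count of 10, TMM, a quasi-likelihood fit over all 9 libraries, two-sided F-tests, Benjamini-Hochberg adjustment over 14622 genes). An SE is the log2 fold change divided by the square root of F. Replicates were numbered in the order of their records, which run through L4440, B0395.3 and H28O16.1 in turn. The labels do not say whether libraries of the same number were made together. Whether libraries stem from separate cultures is not in the labels, and p-values then measure a spread between libraries that may be technical. Depth limits precision most for acs-18 and acdh-8, and PCR duplicates could not be told from molecules, so counting intervals cover counting error only.

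The members, the lists and the tests were chosen with earlier results of these data known. Values in every library are given for members called with a change of at least 1 log2 unit, for the 2 members of each family with the smallest p in a comparison, for the most abundant member of each family and for members called in opposite directions. Members picked once their values were known are marked so in the text, and genes of the calls that an alternative removed are named for that reason. From each pathway list up to 3 genes with the smallest p in a comparison are named. Alternatives were other scalings, no filter, DESeq2 1.42.0, fits of the 6 libraries compared and the removal of each library.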

Additional observations from a re-analysis of the deposited data

How the results depend on the processing

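In the comparisons of both RNAi groups with L4440 and with each other, the counts of members called, and of those lower, stayed within 1.5 times the reported counts under all 15 alternatives. Without 1 library the count called was 21 to 26 in H28O16.1 against L4440, 16 to 26 in B0395.3 against L4440 and 27 to 31 in H28O16.1 against B0395.3. The count of members higher varied more: without 1 library it was 4 to 7 in H28O16.1 against L4440 and 0 to 2 in B0395.3 against L4440, where it was 3 with library totals and 2 in a fit of the 6 libraries compared. No call changed its sign.

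Values near 0 that had not passed did change sign. With upper-quartile scaling acs-3 in H28O16.1 against L4440 stood at -0.0016, acs-13 in H28O16.1 against B0395.3 at -0.0039 and ech-2 in B0395.3 against L4440 at 0.00089. With library totals ech-1.2 in H28O16.1 against L4440 stood at 0.014 and ech-2 in B0395.3 against L4440 at 0.042. Without 1 library the log2 fold change against L4440 in H28O16.1 was -0.43 to 0.20 for acs-3, -0.17 to 0.0045 for acs-5 and -0.032 to 0.079 for ech-8, and in B0395.3 it was -0.038 to 0.016 for ech-2. The cause was not tested. No paired analysis was run because the labels give the libraries no replicate numbers shared between groups.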
